A study of Mus musculus with 16 samples.

Results

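The promoters of the ribosomal protein genes were followed in a table of H3K4me2 peaks merged over 4 populations of mouse medullary thymic epithelial cells. A peak was taken as a member where its annotated gene had a symbol made of Rpl or Rps, a number and, at most, a letter and a further digit, and where the table places it within 1000 bases of that gene's start site. Of 29472 merged peaks, 56 met both conditions, 1 for each of 56 genes, among 11331 peaks that close to any start site. They held 31 genes of the large subunit, 21 of the small subunit and 4 paralogs, Rpl22l1, Rpl7l1, Rps27l and Rps4l. H3K4me2, dimethylation of histone H3 at lysine 4, is a mark of active promoters and enhancers, and it was measured by chromatin immunoprecipitation with an abcam monoclonal antibody in formaldehyde-fixed cells of C57BL/6 thymus. All cells were gated as CD45-negative and Epcam-positive. The mTEC-I gate added low MHC class II with Itgb4, the mTEC-II gate high MHC class II, the mTEC-III gate Ly6D, and the mTEC-IV gate low MHC class II with L1cam and without Itgb4. Each population had 2 libraries, and 8 samples of whole-cell extract are not analysed here. No genotype, treatment, age or sex sets the groups apart in the labels, which do not tie the libraries of a population to separate mice, so p-values reflect only the spread between these libraries and that spread may be technical.

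Ribosomal proteins assemble with ribosomal RNA into the large (Rpl) and small (Rps) subunits, and every growing cell makes them in near-equal amounts. Their genes have short promoters, rich in C and G, and many start transcription inside a run of pyrimidines, the terminal oligopyrimidine tract, through which mTOR signalling controls translation of the messages. Because these genes are active in nearly all cell types, their promoters are often treated as constant and used to set one library on the scale of another.

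Promoter sequences from RefSeq (GRCm38.p6) were found for 40 of the 56 genes, each from 250 bases before to 50 bases after the start. The ETS core CCGGAAG, the site type bound by GABP, stood on either strand in 40% of these promoters and in 9.93% of the promoters of all 27026 genes in that table. The ZBTB33 palindrome stood in 10% of member promoters and in 0.525% of all. The YY1 core AAGATGGC stood in 10% against 3.19%, the GC box GGGCGG in 60% against 38.2%, the NRF1 motif in 5% against 0.688%, and TATAAA in 10% against 15.7%. A run of at least 8 C or T bases on the gene's strand, reaching within 20 bases of the start, was found in 50% of member promoters and in 18.4% of all; such a run can share letters with an ETS core on the opposite strand. The median GC content was 57.5% in member promoters and 52.7% in all, and the median number of CG pairs was 21 and 7. The promoters of all genes were not matched to the members in CG pairs or in carrying H3K4me2. These matches describe letters in a window and were not tied to binding.

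The sequences shown are those of the members that differed most, or least, between populations, from 150 bases before to 20 bases after the start. Capitals mark a pyrimidine run near the start or one of the motifs above other than the GC box. Rpl37a holds the NRF1 motif, Rpl12 the ZBTB33 palindrome, Rpl39 and Rpl36a TATAAA, Rpl38 an ETS core with pyrimidine runs, Rpl39 and Rpl4 pyrimidine runs, and Rpl7l1, Rpl9 and Rps16 none of them in these windows.
Rpl37a: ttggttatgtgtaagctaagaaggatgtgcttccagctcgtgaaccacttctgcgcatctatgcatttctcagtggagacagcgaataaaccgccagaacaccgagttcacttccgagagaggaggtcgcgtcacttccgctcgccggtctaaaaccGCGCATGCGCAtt
Rpl39: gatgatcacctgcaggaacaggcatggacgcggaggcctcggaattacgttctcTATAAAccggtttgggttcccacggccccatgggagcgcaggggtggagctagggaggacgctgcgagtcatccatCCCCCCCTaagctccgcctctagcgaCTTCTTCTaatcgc
Rpl38: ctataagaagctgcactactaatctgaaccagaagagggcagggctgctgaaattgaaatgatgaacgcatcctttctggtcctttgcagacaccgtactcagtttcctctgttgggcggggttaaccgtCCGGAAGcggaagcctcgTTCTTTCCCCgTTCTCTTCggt
Rpl4: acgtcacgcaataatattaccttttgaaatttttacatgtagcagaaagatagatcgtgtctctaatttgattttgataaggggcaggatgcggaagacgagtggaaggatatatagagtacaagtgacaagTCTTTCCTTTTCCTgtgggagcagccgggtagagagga
Rpl7l1: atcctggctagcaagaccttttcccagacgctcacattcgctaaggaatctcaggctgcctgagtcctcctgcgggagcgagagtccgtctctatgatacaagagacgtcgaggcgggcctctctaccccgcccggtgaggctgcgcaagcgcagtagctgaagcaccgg
Rpl12: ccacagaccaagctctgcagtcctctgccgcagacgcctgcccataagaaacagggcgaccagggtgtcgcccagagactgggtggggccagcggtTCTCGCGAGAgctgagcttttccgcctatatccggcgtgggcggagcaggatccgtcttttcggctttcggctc
Rpl9: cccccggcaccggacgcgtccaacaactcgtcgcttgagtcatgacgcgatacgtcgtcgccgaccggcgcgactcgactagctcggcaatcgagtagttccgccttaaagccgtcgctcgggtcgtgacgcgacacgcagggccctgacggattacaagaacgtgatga
Rps16: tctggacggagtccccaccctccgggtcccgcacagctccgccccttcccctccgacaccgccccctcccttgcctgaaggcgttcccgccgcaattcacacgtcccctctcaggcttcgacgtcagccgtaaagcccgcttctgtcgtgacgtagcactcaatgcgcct
Rpl36a: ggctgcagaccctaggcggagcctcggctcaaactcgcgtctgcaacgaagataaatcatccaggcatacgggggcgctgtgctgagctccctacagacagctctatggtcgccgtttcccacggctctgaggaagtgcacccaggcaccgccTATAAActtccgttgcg
In GRCm38.p6 these windows are chr1:72711110-72711279 (plus strand) for Rpl37a, chrX:37085203-37085372 (minus strand) for Rpl39, chr11:114668430-114668599 (plus strand) for Rpl38, chr9:64173237-64173406 (plus strand) for Rpl4, chr17:46782637-46782806 (minus strand) for Rpl7l1, chr2:32961562-32961731 (plus strand) for Rpl12, chr5:65391412-65391581 (minus strand) for Rpl9, chr7:28350539-28350708 (plus strand) for Rps16 and chrX:134585504-134585673 (plus strand) for Rpl36a. The peak table uses the older build mm9, and its coordinates were not moved to this one.

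The 8 libraries held from 1702103.5 to 15412132.5 tags, of which 31.9% to 35.4% lay in the merged peaks, and the 56 members together took 1812 to 13522 tags per library. Levels are H3K4me2 tags per 10000000 tags of a library, as the authors deposited them. Replicate 2 of mTEC-I stood apart: it was the shallowest, 1 tag in it is worth 5.88 in level, its lowest member rested on 13.0 tags, and its mitochondrial peaks, left out of all tests, reached 25225 against 275 to 3904 in the other 7 libraries. The replicates' difference on the log2 scale had an SD over the members of 0.317 in mTEC-I and of 0.170 to 0.193 in the other populations. Epcam, Krt8, Krt18, Foxn1 and Cd40 all carried peaks in each library. The gate genes H2-Ab1, Ly6d and L1cam were called higher at their promoters in mTEC-II, mTEC-III and mTEC-IV, and Itgb4 in mTEC-I. H2-Aa, of MHC class II like H2-Ab1, had no peak within 1000 bases of its start, and its farther peaks summed to 457 and 432 in mTEC-I, which was gated as low for that class, above the 406 and 398 of mTEC-II, gated as high. Ribosomal protein genes have many processed pseudogenes, and neither labels nor headers state how reads matching several places were counted.

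All 56 members carried H3K4me2 in all 4 populations. Their mean level over the 8 libraries ran from 78.0 to 269.5, a range of 3.45 times. Per kilobase of peak the range was 2.30 times, from 33.0 at Rpl10 to 75.7 at Rpl12. The densest were Rpl12, a protein of the stalk base, with 75.7 per kb, Rpl19 with 71.8, Rpl14 with 69.8 and the Rpl7 paralog Rpl7l1 with 67.2. The least dense were Rpl10, which joins the large subunit late in its assembly, with 33.0 per kb, Rpl36a with 35.1, Rps4l with 36.6 and Rpl39, a small protein at the exit tunnel, with 39.1. Rpl10, Rpl36a and Rpl39 are the 3 members on the X chromosome. Their median density was 35.1 per kb, against 52.3 per kb for the 53 autosomal members, and all 360 tested promoter peaks of the X chromosome had a median of 33.3 per kb, against 52.6 per kb for the 10970 others, so the low density on X was seen over promoters there in general. The sex of the mice is not given in the labels.

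**Figure D1:**
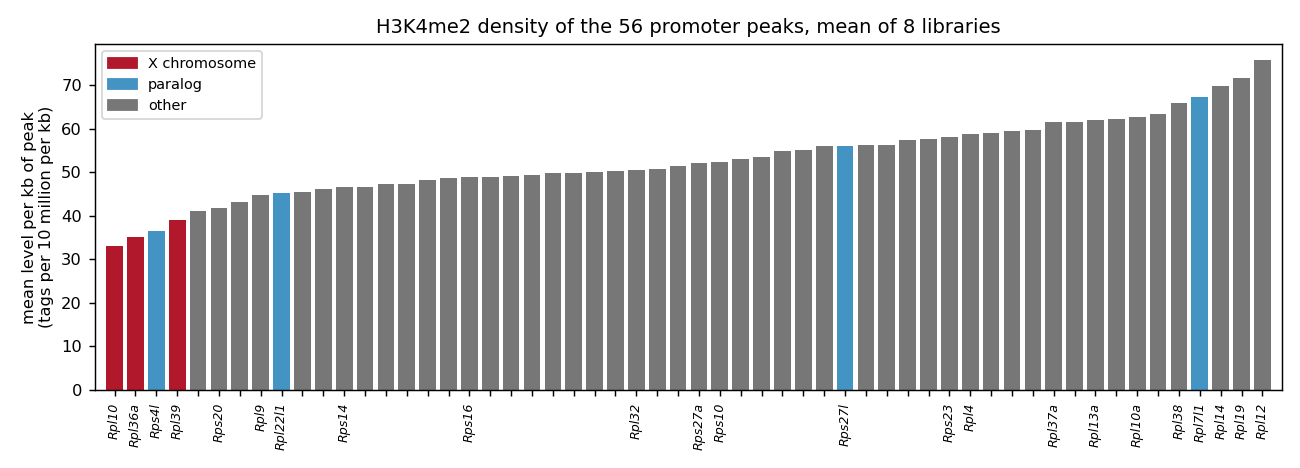
Mean H3K4me2 level per kilobase of peak (tags per 10000000 per kb, mean of the 8 libraries) for each of the 56 members, ordered from low to high and coloured by chromosome X, paralogs and the rest; only some members are labelled. The 3 members on X are among the 4 lowest bars, between 33.0 and 39.1, and Rpl12 is the highest at 75.7.

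Most members lay just inside the gene. The distance from the start had a median of 288 bases, with 44 of 56 members (78.6%) downstream, against a median of 197 bases and 67.5% downstream among promoter peaks. Their median width was 3233 bases, from 2045 to 4727, against 2863 among promoter peaks. The authors' table annotates 28 members to a promoter, 20 to an intron, 6 to an exon, 1 to a transcript end and 1 to a non-coding transcript. In 11 members this annotation names another transcript than the ribosomal protein gene's own, such as the small nucleolar RNAs Snord58b in Rpl17, Snord68 in Rpl13 and Snora7a in Rpl32, or the neighbours Lias beside Rpl9 and Ndufa7 beside Rps28, and a peak that covers both genes cannot be divided between them. The members nearest the limit of 1000 bases were Rpl38 at 843, Rps3a1 at 882 and Rpl6 at 991, and those just outside were Rpl22 at 1061, Rps19 at 1161 and Rps9 at 1320. Of 80 protein-coding genes of the name pattern in the RefSeq table, 55 had a member peak, 7 had only farther peaks (Rpl22, Rpl34, Rpl35, Rps19, Rps24, Rps4x and Rps9), 4 contained a peak that the table gives to a neighbour, and 14 had no peak named for them or annotated in them.

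In the authors' own peak lists, 1 per population with both replicates combined, all 56 members overlapped a listed peak by at least 1 base in mTEC-II, mTEC-III and mTEC-IV. In the mTEC-I list 30 of 56 (53.6%) did so, against 43.6% of all promoter peaks and 23.4% of all merged peaks. That list holds 7036 peaks, against 23949, 19321 and 22757 in mTEC-II, mTEC-III and mTEC-IV, and mTEC-I has the shallowest libraries. The authors' fold over control had a median over the listed members of 20.2 in mTEC-I, 23 in mTEC-II, 24.7 in mTEC-III and 21.1 in mTEC-IV; these folds are the authors' values from their deposited table and describe each list only.

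The members did not stand at 1 level across the populations. Summed over the 56 promoters, H3K4me2 was 10447.5 ± 276 in mTEC-I, 8736 ± 53.1 in mTEC-II, 10418 ± 492 in mTEC-III and 9262 ± 27.5 in mTEC-IV (SD, n = 2 each). The single libraries read 10252 and 10643 (mTEC-I), 8774 and 8699 (mTEC-II), 10070 and 10766 (mTEC-III), and 9243 and 9282 (mTEC-IV). Both mTEC-II libraries lay below all others, both mTEC-IV libraries came next, and mTEC-I and mTEC-III lay above and overlapped each other. As a share of all signal in peaks the members took 0.313% in mTEC-I, 0.273% in mTEC-II, 0.313% in mTEC-III and 0.264% in mTEC-IV, so by that measure mTEC-IV and not mTEC-II was lowest. No test is given of these sums, since the members were chosen as a set. In material from sorted populations, a smaller share of cells with the mark and less of the mark per cell cannot be told apart.

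A typical member changed little. The log2 change of a population is its mean of log2(level + 1) minus the mean of the other 3 populations, and its median over the members was 0.14 in mTEC-I, -0.20 in mTEC-II, 0.13 in mTEC-III and -0.06 in mTEC-IV. Over all 11330 tested promoter peaks the same medians were 0.09, -0.10, 0.04 and -0.01, and over all 29469 tested peaks -0.01, -0.05, 0.00 and 0.04. In mTEC-II 53 of 56 members were below the mean of the others, against 8055 of 11330 promoter peaks. In mTEC-III 51 were above it (91.1%, against 57.6% of promoter peaks), and in mTEC-I 41 were above it (73.2%, against 64.6%). In mTEC-IV 41 were below it, against 5914 of 11330 promoter peaks. Large-subunit genes had medians of 0.18, -0.21, 0.14 and -0.06 in populations I to IV, and small-subunit genes 0.14, -0.18, 0.12 and -0.07. The highest population was mTEC-I for 28 members, mTEC-III for 24, mTEC-IV for 3 and mTEC-II for 1, and the lowest was mTEC-II for 39, mTEC-IV for 12 and mTEC-I for 5. The ratio of the highest to the lowest population had a median of 1.25 over the members and stayed under 1.5 for 54 of 56. The standard error of a member's change had a median of 0.11, near the size of most of these changes.

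**Figure D2:**
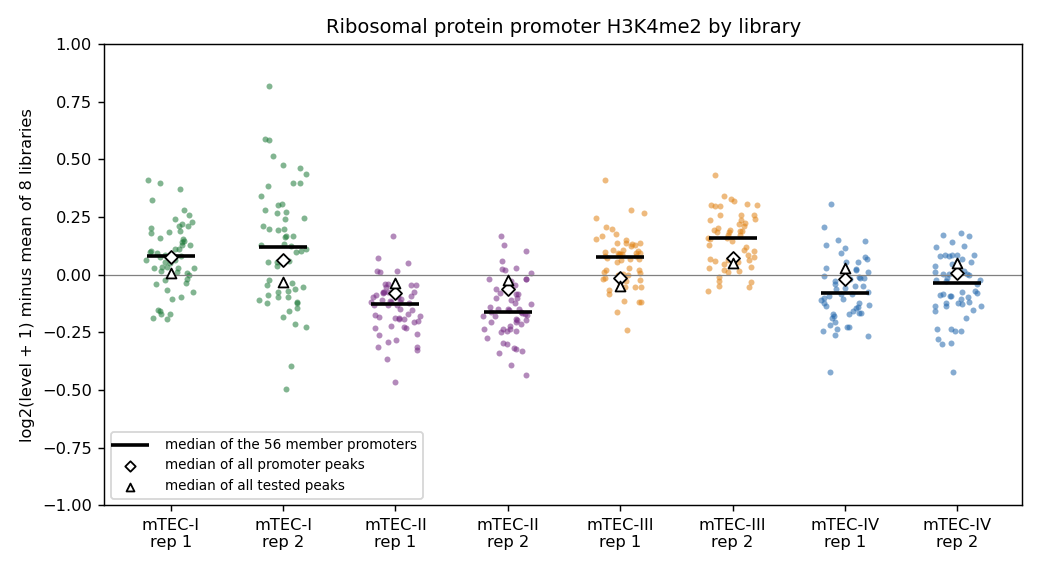
Each point is 1 of the 56 members in 1 library: log2(level + 1) minus that member's mean over the 8 libraries, with the median of the members (bar), of all promoter peaks (diamond) and of all tested peaks (triangle). The member medians run from -0.16 in mTEC-II replicate 2 to 0.16 in mTEC-III replicate 2, a wider range than the diamonds or triangles, and the points of mTEC-I replicate 2 scatter most.

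In limma's F test over the 4 populations (limma-trend, Benjamini-Hochberg adjusted p under 0.05 over all tested peaks), 13 of 56 members (23.2%) differed, against 37.9% of promoter peaks and 58.2% of all tested peaks. Among them were Rpl10a, Rpl12, Rpl37a, Rpl38, Rpl39, Rpl4, Rpl9, Rps10, Rps14, Rps16, Rps20 and Rps23. edgeR found 16 (68.8% of all tested peaks) and DESeq2 13 (61.3%). Limma's count of members rests on single libraries. It rose most without mTEC-I replicate 1, and fell most without either mTEC-II library, mTEC-III replicate 2 or either mTEC-IV library. Over the fits without 1 library, limma's F-test count over all tested peaks moved too, by a smaller factor.

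By limma on the deposited scale mTEC-I gave the most calls. Equal totals in peaks gave 10 lower in mTEC-IV against 9 higher in mTEC-I. Of all 29469 tested peaks, 6003 and 4582 were called in these directions by that scaling. edgeR gave 9 in mTEC-IV against 7 in mTEC-I, and DESeq2 4 in each of mTEC-I, mTEC-II and mTEC-IV. Without mTEC-I replicate 2, limma gave more calls in mTEC-II than in mTEC-I. Against the mean of the other 3 populations, 8 members were higher in mTEC-I (14.3%), against 17.8% of promoter peaks and 14.7% of all tested peaks, so the share was near the background. Among them were Rpl7l1, Rpl37a, Rpl39, Rpl4, Rpl38, Rps10 and Rps23. In 8 members both mTEC-I libraries lay above the other 6 (14.3%, against 17.5% of promoter peaks and 12.3% of all tested peaks), and in 1, Rpl13a, both lay below (1.79%, against 6.57% and 15.5%). Rpl37a, a zinc-binding protein of the large subunit whose promoter above holds the NRF1 motif, had levels of 183.4 and 252.6 in mTEC-I, against 142.7 and 123.7 (mTEC-II), 180.4 and 159.6 (mTEC-III) and 168.8 and 157.1 (mTEC-IV). Both mTEC-I libraries lay above the other 6, and the log2 change was 0.48 (SE 0.13, adjusted p = 0.0126 by limma). Rpl39 had 139.3 and 170.4 in mTEC-I, against 101.9 and 104.8 (mTEC-II), 112.9 and 125.4 (mTEC-III) and 130.9 and 107.5 (mTEC-IV), again with no overlap (log2 change 0.44, SE 0.13, adjusted p = 0.0186 by limma). Rpl4, which lines the exit tunnel, had 244.5 and 305.5 in mTEC-I, against 181.4 and 205.1 (mTEC-II), 232.2 and 216.7 (mTEC-III) and 205.6 and 198.9 (mTEC-IV) (log2 change 0.41, SE 0.10, adjusted p = 0.00907 by limma). Its mTEC-I libraries also lay above all others.

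The call for Rpl7l1 rested on 1 library. It had 130.8 and 235.0 in mTEC-I, against 102.8 and 115.1 (mTEC-II), 146.4 and 134.8 (mTEC-III) and 99.0 and 136.2 (mTEC-IV). The first mTEC-I library lay inside the range of the others, and the log2 change of 0.53 (SE 0.19, adjusted p = 0.0483 by limma) was 0.11 without mTEC-I replicate 2, with an adjusted p of 0.625. It also ended without mTEC-II replicates 1 (adjusted p = 0.0958) and 2 (0.0689), mTEC-III replicates 1 (0.0909) and 2 (0.109) and mTEC-IV replicate 1 (0.111), and its limma, edgeR and DESeq2 values ran from 3.57e-05 to 0.625 over 18 alternatives. Without mTEC-I replicate 2 the calls of Rpl37a (adjusted p = 0.143), Rpl39 (0.128), Rpl4 (0.0910), Rps10 (0.0535) and Rpl38 (0.325) ended too. Over the alternatives, adjusted p ran from 0.000113 to 0.143 for Rpl37a, from 0.00252 to 0.128 for Rpl39, from 0.000257 to 0.0910 for Rpl4, from 0.00821 to 0.0726 for Rps10 and from 0.000281 to 0.325 for Rpl38. Rpl38, whose protein is known in mice for its part in translating Hox messages, also lost its call without mTEC-II replicates 1 (0.0561) and 2 (0.0596), mTEC-III replicate 1 (0.0678) or mTEC-IV replicate 1 (0.0667). Other tools and scalings ended the call of Rpl7l1 by TMM (0.0543), RLE (0.0552), loess (0.0890) and DESeq2 (0.136). They ended that of Rpl38 by loess (0.0619), edgeR (0.0508) and DESeq2 (0.0605), and of Rpl39 by DESeq2 (0.0549). Rps23, given next, lost its call by loess (0.0758) and DESeq2 (0.0590). With libraries scaled to the members, limma's adjusted p was 0.111 for Rpl7l1, 0.0916 for Rpl38 and 0.0718 for Rpl39. It was 0.0531 for Rpl4, 0.0726 for Rps10 and 0.151 for Rps23, so these calls ended there too.

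Rps23, a protein of the decoding centre, had 190.4 and 185.1 in mTEC-I, against 125.9 and 157.4 (mTEC-II), 167.2 and 163.1 (mTEC-III) and 132.0 and 144.0 (mTEC-IV) (log2 change 0.35, SE 0.11, adjusted p = 0.0277 by limma). Rps10 had 195.8 and 211.5 in mTEC-I, against 158.0 and 140.7 (mTEC-II), 164.7 and 179.0 (mTEC-III) and 160.0 and 137.4 (mTEC-IV) (log2 change 0.38, SE 0.11, adjusted p = 0.0144 by limma). In both genes the mTEC-I libraries lay above the other 6. The adjusted p of Rps23 was between 0.0507 and 0.0771 without mTEC-I replicate 1, mTEC-II replicate 1, either mTEC-III library or mTEC-IV replicate 1, within a range of 0.0234 to 0.151 over all 18. edgeR called 7 members higher in mTEC-I (14.7% of all tested peaks) and DESeq2 4 (12.5%). The number by limma rose without mTEC-I replicate 1. It fell most without mTEC-I replicate 2, mTEC-II replicate 1 or mTEC-III replicate 1. Over the fits without 1 library, the count of all tested peaks higher in mTEC-I moved too, by a smaller factor. H3K4me2 of fibroblast markers moved with this population: 3 of 4 listed genes carried a peak, their summed level was 465 to 585 in mTEC-I libraries, 275 to 294 in mTEC-II, 186 to 224 in mTEC-III and 282 to 289 in mTEC-IV, and Col3a1 had no peak. All 3 listed endothelial markers carried peaks, with a summed level of 320 to 329 in mTEC-I, 272 to 285 in mTEC-II, 211 to 254 in mTEC-III and 381 to 408 in mTEC-IV. Of these Cdh5 had 103 and 124 in mTEC-IV against 5.88 to 20.4 in the other libraries, and the Kdr promoter was higher in mTEC-I (log2 change 0.40, adjusted p = 0.0425 by limma) and lower in mTEC-III (-0.48, 0.0249). Pecam1 did not go with them. It had 62.68 and 56.76 in mTEC-IV, against 61.13 to 86.55 in the other libraries, and 61.13 and 85.19 in mTEC-I. The part of these markers in the member calls was not tested.

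**Figure D3:**
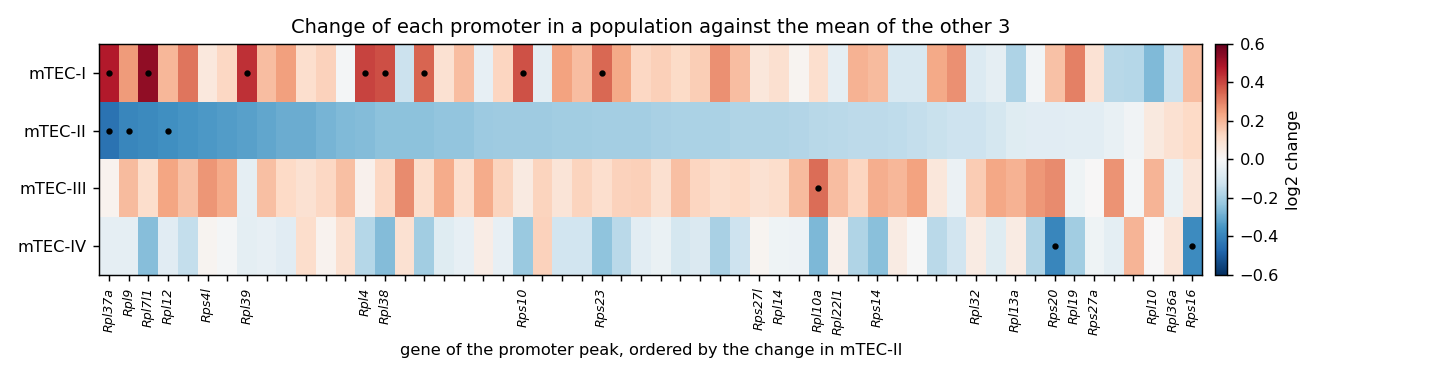
Log2 change of each of the 56 member promoters (columns, ordered by the change in mTEC-II) in each population against the mean of the other 3 (rows), red above and blue below 0, with a dot where limma's adjusted p is under 0.05; only some members are labelled. The mTEC-II row is blue for 53 members, and the dots number 8 in mTEC-I, 3 in mTEC-II, 1 in mTEC-III and 2 in mTEC-IV.

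In mTEC-II the members were low as a group, while few passed the test one by one. Only 3 were called lower (5.36%), against 6.29% of promoter peaks and 7.23% of all tested peaks. In 16 members (28.6%) both mTEC-II libraries lay below the other 6, against 13.3% of promoter peaks and 8.51% of all tested peaks. Rpl9 had 170.3 and 161.8 in mTEC-II, against 236.0 and 229.1 (mTEC-I), 218.3 and 232.0 (mTEC-III) and 215.0 and 182.8 (mTEC-IV) (log2 change -0.39, SE 0.09, adjusted p = 0.0153 by limma). Rpl12 had 183.0 and 171.8 in mTEC-II, against 253.8 and 223.3 (mTEC-I), 223.3 and 264.4 (mTEC-III) and 190.8 and 225.2 (mTEC-IV) (log2 change -0.37, SE 0.11, adjusted p = 0.0329 by limma). Rpl37a, given above, changed by -0.44 in mTEC-II (SE 0.13, adjusted p = 0.0342 by limma). In each of these the 2 mTEC-II libraries were the lowest of the 8.

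Those 3 calls ended without either mTEC-II library. Such fits leave 1 library in mTEC-II and gave far fewer calls there over all tested peaks too, so the loss is not particular to these genes. Without replicates 1 and 2 the log2 change was -0.43 and -0.35 for Rpl9, -0.41 and -0.32 for Rpl12, and -0.55 and -0.34 for Rpl37a. Rpl12 also lost its call without mTEC-III replicate 2 (0.0739) or mTEC-IV replicate 2 (0.0807), and Rpl37a without mTEC-III replicates 1 (0.0872) and 2 (0.0564) or mTEC-IV replicates 1 (0.0812) and 2 (0.0638). Other scalings ended the call of Rpl37a in mTEC-II too, with an adjusted p of 0.0636 by TMM, 0.0609 by RLE, 0.0829 by equal totals in peaks, 0.113 by loess and 0.196 on the members' own scale, and that of Rpl12 by equal totals (0.0629), loess (0.107) and the members' scale (0.252). Rpl9 lost its call by loess (0.0637) and on the members' scale (0.174). Over 19 alternatives adjusted p ran from 0.00214 to 0.212 for Rpl9, from 0.00285 to 0.297 for Rpl12 and from 0.000392 to 0.349 for Rpl37a. The count of members lower in mTEC-II rose without either mTEC-I library, as did that over all tested peaks, and it fell without mTEC-III replicate 2. The members' median change in mTEC-II stayed between -0.22 and -0.17 in the fits without 1 library. edgeR called 7 lower (11.5% of all tested peaks) and DESeq2 4 (9.09%).

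In mTEC-III 1 member was called higher (1.79%), against 8.08% of promoter peaks and 11.3% of all tested peaks. It was Rpl10a, a protein of the L1 stalk, with 265.6 and 267.9 in mTEC-III, against 201.2 and 276.1 (mTEC-I), 212.2 and 198.8 (mTEC-II) and 199.0 and 190.0 (mTEC-IV). Replicate 2 of mTEC-I lay above both mTEC-III libraries, and the log2 change was 0.34 (SE 0.11, adjusted p = 0.0465 by limma). The call ended without any mTEC-II, mTEC-III or mTEC-IV library, with a log2 change of 0.32 to 0.35 in those fits. It also ended by loess (adjusted p = 0.0893 by limma) and with libraries scaled to the members (0.226). Accordingly the count of members higher in mTEC-III fell without any of those 6 libraries, and it rose without either mTEC-I library. Over all tested peaks that count also rose without either mTEC-I library and fell without either mTEC-III library. With all libraries, edgeR called 7 members higher in mTEC-III (17.9% of all tested peaks) and DESeq2 1 (14%). In 5 members both mTEC-III libraries lay above the other 6 (8.93%, against 11.2% of promoter peaks and 11.1% of all tested peaks), among them Rpl21, Rps26, Rps3a1 and Rps7.

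In mTEC-IV 2 members of the small subunit were called lower (3.57%), against 8.28% of promoter peaks and 14.3% of all tested peaks. Rps16, which contacts the tRNA in the P site, had 168.3 and 163.7 in mTEC-IV, against 202.7 and 243.8 (mTEC-I), 204.1 and 227.0 (mTEC-II) and 194.9 and 225.5 (mTEC-III). Both mTEC-IV libraries were the lowest of the 8, which held for 3 members (5.36%, against 8.06% of promoter peaks and 11.4% of all tested peaks), Rps14, Rps16 and Rps7 (Rps16: log2 change -0.38, SE 0.10, adjusted p = 0.0133 by limma). Rps20, of the head of the small subunit, had 152.9 and 127.9 in mTEC-IV, against 169.5 and 208.6 (mTEC-I), 148.6 and 184.4 (mTEC-II) and 198.1 and 200.2 (mTEC-III), with 1 mTEC-II library inside the mTEC-IV range (log2 change -0.39, SE 0.12, adjusted p = 0.0250 by limma). Rps16 lost its call without mTEC-IV replicates 1 or 2, with log2 changes of -0.40 and -0.36 in those fits. With libraries scaled to the members Rps16 kept its call and Rps20 lost it (adjusted p = 0.0698 by limma). Rps20 lost it without mTEC-II replicate 2 (0.0700), mTEC-III replicates 1 (0.0548) or 2 (0.0565) or mTEC-IV replicate 2 (0.308), within a range of 0.00140 to 0.308. The count of members lower in mTEC-IV rose without either mTEC-I library. It fell without mTEC-II replicate 2, mTEC-III replicate 2 or either mTEC-IV library. Over all tested peaks that count also fell without either mTEC-IV library. edgeR called 9 (21.1% of all tested peaks) and DESeq2 4 (17%). Of 8 listed blood cell markers 2 carried a peak, and they went opposite ways in this population: Ptprc, which encodes CD45, had 269 and 265 in mTEC-IV against at most 48.9 in the other libraries, and Itgam had 12.1 and 16.7 against 20.1 to 43.5. Their summed level was 281 to 282 in mTEC-IV against 54.2 to 77.6, while Cd3e, Cd4, Cd8a, Rag1 and Lck had no peak, and the part of these markers in the member calls was not tested.

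In the opposite directions few members were called under any setting. On the deposited scale with all libraries limma gave 0 lower in mTEC-I, 0 higher in mTEC-II, 0 lower in mTEC-III and 0 higher in mTEC-IV. edgeR and DESeq2, each on its own library scaling, also gave 0 in each. In those directions limma called 8.37%, 3.42%, 12% and 10.1% of promoter peaks and 23.1%, 10.2%, 14.2% and 23.5% of all tested peaks, edgeR 22.2%, 20.7%, 19.3% and 26.6% of all tested peaks, and DESeq2 19.7%, 16.2%, 16.8% and 24.6%. Without mTEC-I replicate 1, however, Rpl10 and Rps15 were lower in mTEC-I and Rps15 was higher in mTEC-IV, loess and the members' own scale called Rpl13a lower in mTEC-I, and the members' scale called Rps16 higher in mTEC-II. Each mean of 3 populations shares libraries with the others, so these 4 comparisons are not independent.

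Rps27a, which encodes a ribosomal protein fused to ubiquitin, had the steadiest promoter. Its levels were 217.4 and 179.2 (mTEC-I), 179.1 and 186.2 (mTEC-II), 181.7 with 196.1 (mTEC-III), then 173.2 with 200.1 (mTEC-IV), and the SD of its 4 population means was 0.05 on the log2 scale. The populations overlapped throughout (F test, adjusted p = 0.862 by limma). Rpl36a (SD 0.08), the paralog Rps27l (0.09) and Rpl32 (0.10) came next. At the other end stood Rpl7l1 (0.31), Rpl37a (0.28), Rpl39 (0.24) and Rpl38 (0.24). The paralogs covered the whole range, with Rps27l and Rpl22l1 (0.11) low, Rps4l at 0.19 and Rpl7l1 highest. The median SD was 0.146 over the members, 0.178 over promoter peaks and 0.354 over all tested peaks, and 36.4% of promoter peaks and 18.8% of all tested peaks had an SD below the members' median.

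As a scale, the members gave factors that differed from the deposited one by population. The median deviation of the members was 0.08 and 0.12 (mTEC-I), -0.13 and -0.16 (mTEC-II), 0.08 and 0.16 (mTEC-III), and -0.08 and -0.03 (mTEC-IV). The range over the 8 libraries was 0.32 on the log2 scale, or 1.25 times, against 0.16 for the median of promoter peaks and 0.10 for that of all tested peaks. Factors from TMM and RLE, 2 scalings that use all peaks, also ranged over 0.10, and factors from the total in peaks over 0.15. Setting the members equal therefore moved the median change of all tested peaks by -0.13 in mTEC-I, 0.19 in mTEC-II, -0.15 in mTEC-III and 0.08 in mTEC-IV.

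On the members' scale, 2655 tested peaks were higher (9.01%) and 8511 lower (28.9%) in mTEC-I, against 4338 and 6814 on the deposited scale. In mTEC-II 5511 were higher (18.7%) and 896 lower (3.04%), against 3015 and 2130 as deposited. In mTEC-III 2234 were higher (7.58%) and 6612 lower (22.4%), against 3338 and 4173. In mTEC-IV 8192 were higher (27.8%) and 3534 lower (12%), against 6929 and 4223. The share of higher among all calls thus was 23.8% against 38.9% in mTEC-I, 86.0% against 58.6% in mTEC-II, 25.3% against 44.4% in mTEC-III and 69.9% against 62.1% in mTEC-IV. Equal totals in peaks gave 72.6% in mTEC-II and 50.5% in mTEC-IV, and loess scaling, chosen after the data were seen, 45.0% in mTEC-IV. The F test called 18072 peaks (61.3%) on the members' scale and 17141 as deposited. Among the members themselves, on their own scale, the F test kept 1, Rps16; Rpl37a was higher and Rpl13a lower in mTEC-I, and Rps16 was higher in mTEC-II and lower in mTEC-IV. That the members' own medians lie near 0 on this scale follows from its construction.

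**Figure D4:**
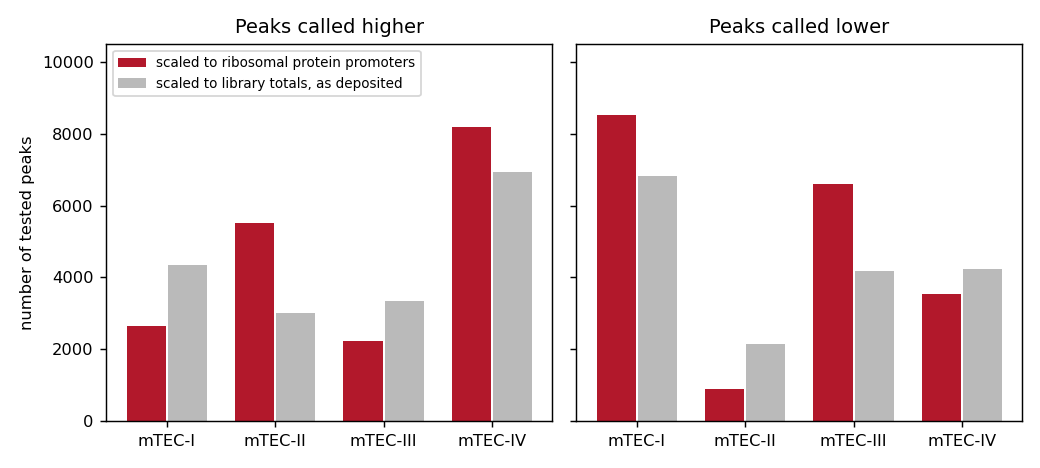
Number of the 29469 tested peaks called higher (left) and lower (right) in each population against the mean of the other 3, with libraries scaled to the 56 member promoters (red) or to library totals as deposited (grey). Scaling to the members raises the higher calls in mTEC-II to 5511, against 3015 as deposited, and the lower calls in mTEC-I to 8511, against 6814.

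Over each of 4 further lists of the pathway, as over the members, the median change was lowest in mTEC-II, at -0.12, -0.14, -0.15 and -0.11 for the lists in the order given here. It was lowest there over all promoter peaks too, at -0.10. All 6 ribosomal protein genes outside the name pattern on the list, among them Rplp0, Rplp1 and Rpsa, had a promoter peak, with median changes of -0.01 in mTEC-I, -0.12 in mTEC-II, 0.20 in mTEC-III and -0.04 in mTEC-IV. Of these Rplp0, of the stalk, was higher in mTEC-III, with 130.6 and 128.4 there against 95.2 and 64.6 (mTEC-I), 88.9 and 99.2 (mTEC-II) and 92.9 and 87.8 (mTEC-IV) (log2 change 0.56, adjusted p = 0.0192 by limma). Among 35 ribosome biogenesis genes, 24 had a promoter peak and 5 (20.8%) differed by the F test, against 37.9% of promoter peaks and 58.2% of all tested peaks, and the share of each of the 4 lists lay below both. Nop58, Wdr12 and Rpf2 were higher in mTEC-I, Npm1, which encodes nucleophosmin, was lower in mTEC-II (log2 change -0.39, adjusted p = 0.0132 by limma), and Fbl, Rrp12 and Rrn3 were higher in mTEC-III. Of 17 other genes listed for pyrimidine-tract messages, most of them translation factors, 11 had a promoter peak and 2 (18.2%) differed by the F test. Tpt1 was higher in mTEC-I and Btf3 lower in mTEC-II. Vim, which encodes the filament protein vimentin and marks mesenchymal cells, was higher in mTEC-I and lower in mTEC-III, as the summed fibroblast markers given above were highest and lowest there. Among 15 regulators of ribosomal protein genes and messages, 11 had a promoter peak and 2 (18.2%) differed: Rps6kb1, the S6 kinase downstream of mTOR, had 328.3 and 363.2 in mTEC-IV, against 220.5 and 270.3 (mTEC-I), 196.9 and 217.0 (mTEC-II) and 296.5 and 292.0 (mTEC-III), with log2 changes of 0.49 in mTEC-IV and -0.49 in mTEC-II (adjusted p = 0.00155 and 0.00542 by limma), and Max was higher in mTEC-III and lower in mTEC-IV. By direction, the biogenesis list gave 12.5% higher in mTEC-I and in mTEC-III and 4.17% lower in mTEC-II, against 17.8%, 8.08% and 6.29% of promoter peaks, and the other 3 lists gave at most 2 calls each in any direction. The library medians of these lists ranged over 0.29, 0.25, 0.25 and 0.22 on the log2 scale, against 0.32 for the members. Each of the 16 calls named in these lists ended without at least 1 single library: Rplp0 without mTEC-II replicate 1 (adjusted p = 0.0561) or mTEC-III replicates 1 (0.154) and 2 (0.120), Npm1 without mTEC-II replicates 1 (0.236) and 2 (0.115), and Rps6kb1 without mTEC-II replicates 1 (0.140) and 2 (0.0614) in that population and without mTEC-IV replicate 2 (0.0538) in the other. Vim ended without mTEC-I replicate 2 (0.0650) and mTEC-III replicate 1 (0.140), Nop58 without mTEC-I replicate 2 (0.107) or mTEC-II replicate 1 (0.0519), and the calls of Wdr12, Rpf2, Fbl, Rrp12, Rrn3, Tpt1, Btf3 and Max each without 4 to 6 of the libraries in turn.

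Genes of the name pattern also had 29 peaks farther than 1000 bases from their start, and these varied more. The F test called 17 of the 29 (58.6%), against 70.8% of all tested peaks that far from a start, and their median SD over populations was 0.40, against 0.15 for the members. A peak at -24845 bases from the start of Rps27a, inside an intron of another gene, had 111.6 and 107.5 in mTEC-IV, against 4.64 and 5.88 (mTEC-I), 7.14 and 6.66 (mTEC-II) and 2.52 and 5.89 (mTEC-III), while the Rps27a promoter was the steadiest member. A peak 9675 bases downstream of the Rpl30 start had 58.3 and 60.9 in mTEC-IV, against 6.19 and 5.88 (mTEC-I), 9.08 and 11.5 (mTEC-II) and 5.05 and 0 (mTEC-III). A peak at -47477 bases from the start of Rps4l had 54.4 and 48.4 in mTEC-IV and at most 5.05 elsewhere, with 0 in both mTEC-I libraries, where 3 tags would read 4.64 and 17.6. A peak 13720 bases downstream of Rps26 had 46.1 and 49.6 in mTEC-II, against 10.1 and 11.8 (mTEC-I), 28.4 and 39.5 (mTEC-III) and 16.5 and 19.7 (mTEC-IV). The table gives each peak to its nearest start site, so a distant peak need not act on the ribosomal protein gene. These 4 were chosen after their values were seen.

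**Figure D5:**
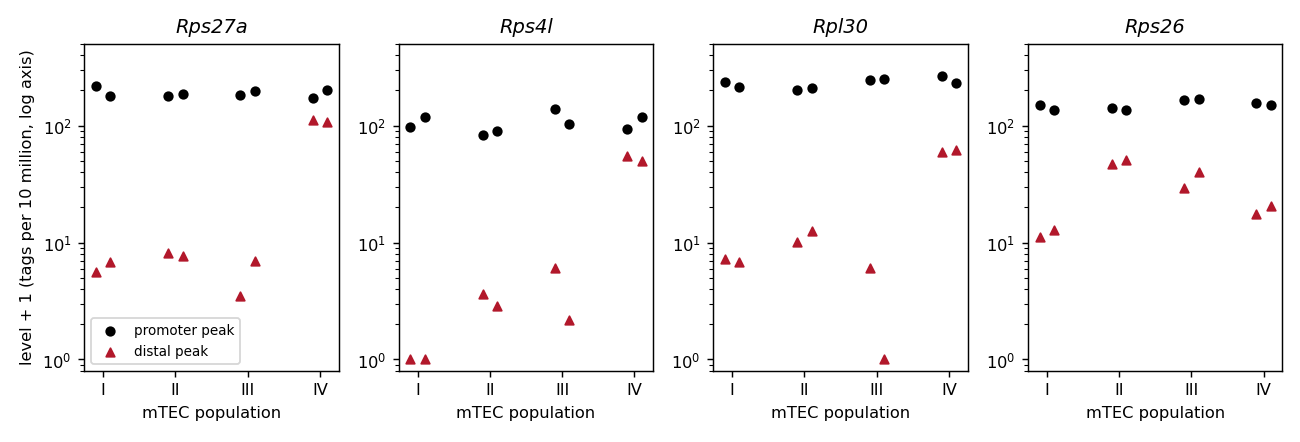
H3K4me2 level plus 1 (tags per 10000000, log axis) in each library at the promoter peak (circles) and at 1 distant peak (triangles) annotated to Rps27a, Rps4l, Rpl30 and Rps26, with populations I to IV along the axis. The promoter points stay near 1 height in all populations, while the triangles of Rps27a, Rps4l and Rpl30 are high in mTEC-IV and low elsewhere, and those of Rps26 are highest in mTEC-II.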

How the data were processed

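H3K4me2 chromatin immunoprecipitation from 4 sorted populations, 2 libraries each, was analysed. The submitters' processing notes name Picard 1.108, bcl2fastq 2.15.0.4 and build mm9; neither the aligner nor the handling of duplicates is given in the sources used. The authors deposited, per the file headers, HOMER's signal in merged peaks, as tags per 10000000, and peak lists with a signal, a fold over control and a p-value for each peak.

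From the signal, peaks reaching 10 in at least 2 libraries were tested, without the mitochondrial peaks, which left 29469, all 56 members among them. Limma 3.58.1 (R 4.3.3, limma-trend) was fitted to log2(signal + 1) of the 8 libraries, each population against the mean of the other 3 and an F test, with Benjamini-Hochberg adjustment over all tested peaks. Fold changes on this scale understate those of low peaks. The 4 populations shared 4 residual and 7.75 prior degrees of freedom. edgeR 4.0.16 and DESeq2 1.42.0 were run on tags recovered from the header totals. Of the values, 100% lay within 0.1 tags of a multiple of 0.5 tags, and each such step counted as 1. edgeR applied TMM factors and DESeq2 its own size factors, so their calls differ from limma's in scale as well as in test. Floors of 3 tags cover counting error only.

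Named members are the 4 densest and 4 least dense, the called ones with the largest change (up to 4 per direction and population), the 4 with the smallest and the 4 with the largest SD, and the paralogs, with called genes of the other lists; Rps10 and Rps23, called outside that rule, were added after their values were seen. Some genes are not reported here. Members and lists were chosen with earlier results of these data known. The fit was tested on simulated data with 50 changed peaks of each size in mTEC-II. It recovered 0% of changes of 1.2 times, 24% of 1.5 times, 78% of 2 times and 100% of 4 times. The changed peaks were drawn from all tested peaks, so these rates are not those of the members. Few peaks were changed and all libraries were given the same spread beyond counting, unlike in the data. The rates are therefore not those of the fit to the data either. Other scalings, filters, pseudocounts, tools and left-out libraries were tried.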

Additional observations from a re-analysis of the deposited data

How the results depend on the processing

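The member medians kept their sign under all alternatives except in mTEC-III and mTEC-IV under scaling to the members, where the 4 were 0.0139, -0.00424, -0.0173 and 0.0184 in populations I to IV by construction. That scaling gave 1 member higher and 1 lower in mTEC-I, 1 higher and 0 lower in mTEC-II, 0 higher in mTEC-III, 1 lower in mTEC-IV and 1 by the F test, and of all tested peaks 2655 higher in mTEC-I, 5511 higher and 896 lower in mTEC-II and 6612 lower in mTEC-III. Loess gave 5 members higher and 1 lower in mTEC-I, 0 lower in mTEC-II, 0 higher in mTEC-III and 1 by the F test, medians of 0.0622 (mTEC-I) and -0.0904 (mTEC-II), and 4530 peaks higher in mTEC-IV. TMM gave medians of -0.15 in mTEC-II and -0.11 in mTEC-IV and 5 members lower in mTEC-IV; RLE -0.16 in mTEC-II and 4 lower in mTEC-IV. Equal totals in peaks gave 1 lower in mTEC-II (median -0.12), 2 higher in mTEC-III and 10 lower in mTEC-IV (median -0.16). Over all tested peaks TMM, RLE and equal totals called 4994, 4713 and 6003 lower in mTEC-IV, against 4223 as deposited. Equal totals called 1439 of them lower in mTEC-II and 3621 higher in mTEC-III, against 2130 and 3338 as deposited. edgeR gave 7 members lower in mTEC-II (median -0.14), 7 higher in mTEC-III, 9 lower in mTEC-IV (median -0.11), and 6086 peaks higher and 3377 lower in mTEC-II and 5261 higher in mTEC-III. DESeq2 gave 4 members higher in mTEC-I, 4 lower in mTEC-IV, a median of -0.16 and 4760 peaks higher in mTEC-II. Limiting members to 500 bases gave 0 higher in mTEC-III and a factor of 0.0787 for mTEC-I replicate 2. Without both mTEC-I libraries, added after the data were seen, 11 members were lower in mTEC-II (median -0.17) and 15 higher in mTEC-III (median 0.21), the mTEC-IV median was -0.026, and 5370 peaks were higher and 6451 lower in mTEC-II and 5254 higher and 8068 lower in mTEC-III. The cause of these differences was not tested. Pseudocount 5 and leaving out the paralogs moved no count by over 1.5 times and no median by more than the replicate spread. Going without the filter could change little, since 29469 of 29470 annotated peaks passed it.

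With replicate number as a block, 0 members were higher in mTEC-III and 11 differed by the F test. Of the other named calls those of Rrn3 (adjusted p = 0.0517 by limma) and Btf3 (0.0589) ended. The difference between replicates 1 and 2 over all tested peaks correlated between -0.013 and 0.016 from population to population. No pairing by number was seen in it, but such differences hold much noise and cannot exclude one. Leaving out 1 library at a time gave 5 to 17 members higher and 0 to 2 lower in mTEC-I (median 0.11 to 0.18), 0 to 18 lower in mTEC-II (median -0.22 to -0.17), 0 to 9 higher in mTEC-III, 0 to 1 higher and 0 to 9 lower in mTEC-IV (median -0.109 to -0.0455) and 2 to 29 by the F test. Over all tested peaks it gave 311 to 5870 higher and 242 to 5113 lower in mTEC-II, 1158 to 5941 higher and 1362 to 6710 lower in mTEC-III, and 3144 to 8997 higher and 2369 to 5826 lower in mTEC-IV. The lone library left in a population was assumed to vary like the others. Depth limits mTEC-I most: replicate 2 has 1702103.5 tags, and a floor of 3 tags there is 17.6.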

Other observations

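Mitochondrial ribosomal proteins, which build the ribosome of the mitochondrion, gave a comparison with genes of like function and other promoters. Of 78 genes on this list 58 had a promoter peak, and 12 of these (20.7%) differed between populations by limma's F test, against 37.9% of promoter peaks. In mTEC-I 7 were higher and 2 lower, in mTEC-II 5 were lower, in mTEC-III 3 were higher and 1 lower, and in mTEC-IV 1 was higher and 1 lower. As shares, 12.1% were higher and 3.45% lower in mTEC-I, 8.62% lower in mTEC-II and 5.17% higher in mTEC-III, against 17.8%, 8.37%, 6.29% and 8.08% of promoter peaks. Mrpl3 had 128.5 and 173.3 in mTEC-I, against 98.3 and 97.4 (mTEC-II), 95.9 and 93.0 (mTEC-III) and 110.0 and 117.1 (mTEC-IV) (log2 change 0.55, adjusted p = 0.00710 by limma), and both mTEC-I libraries lay above the other 6. Mrps14 was higher in mTEC-I by 0.53 (adjusted p = 0.00351 by limma), Mrpl11 changed by -0.47 in mTEC-II (adjusted p = 0.0138 by limma), and Mrps23 by -0.77 in mTEC-III (adjusted p = 0.0122 by limma). Of the 20 calls on this list, that of Mrps14 alone outlasted the removal of any 1 library (adjusted p at most 0.0162). Mrpl3 ended without mTEC-I replicate 2 (0.0774), Mrpl11 without mTEC-II replicates 1 (0.216) and 2 (0.138), and Mrps23 without mTEC-III replicate 1 (0.189). The library medians of this list ranged over 0.24 on the log2 scale.

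Among 13 housekeeping genes 8 had a promoter peak, and 2 (25%) differed by limma's F test, against 37.9% of promoter peaks. Tubb5 (log2 change 0.44), Gapdh (0.26) and Actb (0.21) were higher in mTEC-I, Polr2a was lower in mTEC-II (-0.27), and Gusb (0.49) and Sdha (0.34) were higher in mTEC-IV. These directions held 37.5%, 12.5% and 25% of the 8 genes, or 3, 1 and 2 of them, against 17.8%, 6.29% and 10.1% of promoter peaks. The library medians of this list ranged over 0.22, and the lowest was -0.12, in mTEC-III replicate 1, where that of the ribosomal protein promoters was 0.08. Tubb5 lost its call without mTEC-I replicate 2 (adjusted p = 0.116), and the other 5 each without 3 to 6 of the libraries in turn.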
